A study of Mus musculus with 6 samples.

Results

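Interferon-stimulated genes were followed in the skin of mice carrying the LynDN transgene and of wild-type (WT) mice. The transgene, LynDeltaN in the title of the series, is a form of Lyn, a tyrosine kinase of the Src family. Of 39 interferon-stimulated genes listed by symbol, 36 had a row on the array, each with 1 probe, among 18617 named genes and 22879 rows in all. Ifit3, Ifi44 and Ddx58 were not analysed here. Total RNA of 3 LynDN and 3 WT mice was hybridised on 6 2-colour arrays. The strain, age and sex of the mice, and the promoter that drives the transgene, are not given in the labels. Each of 3 mouse pairs was measured on 2 arrays with the dyes exchanged: pair 1 joined LynDN mouse 1 to WT mouse 1, pair 2 joined LynDN mouse 2 to WT mouse 3, and pair 3 joined LynDN mouse 3 to WT mouse 2. All values below are log2 ratios of the 2 genotypes as deposited, with base 2 assumed. The numerator is not stated, so a positive ratio is defined here only as the side on which the calcium-binding alarmins lay, S100a9 with 5.54 ± 0.16 and S100a8 with 4.61 ± 0.12 (SD, n = 3 pairs). Krt16, a keratin of wounded epidermis, lay on the same side with 2.49 ± 0.16 (SD, n = 3 pairs). Whether that side is LynDN was not settled from the labels, and if it were WT every sign would turn at once. Levels cannot be read from ratios, so the tissue could not be checked by the presence of skin markers.

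Interferons are secreted proteins, of which cells release the type I forms on sensing foreign or misplaced nucleic acid. Type I interferons act through the receptor subunits Ifnar1 and Ifnar2 and activate a complex that holds Stat2 and Irf9 and binds the interferon-stimulated response element (ISRE). Interferon gamma acts through Ifngr1 and Ifngr2 on promoters that hold the gamma-activated sequence (GAS), and also induces Irf1. The target genes encode antiviral effectors, nucleic acid sensors, GTPases that attack intracellular pathogens, and the machinery that presents peptides on MHC class I. Keratinocytes, macrophages and dendritic cells of skin can all respond.

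Across the 3 mouse pairs the members lay slightly on the positive side, and none passed the test. The mean ratio was positive for 34 of 36 members, against 43.9% of all rows, with Rsad2 at -0.045 and Ifnar1 at -0.025 as the others. The median over the members was 0.072, against -0.014 over all rows, and the means ran from -0.045 to 0.44. In limma on the pair values 0 of 36 members passed at an adjusted p of 0.05, where 0.0175% of all rows passed. At an unadjusted p under 0.05 there were 3 members, Ifih1, Isg20 and Ifngr1, against 12.3% of all rows. With the mouse pair as a replicate block over the 6 arrays 0 members passed, against 1.06% of all rows. The smallest adjusted p of a member was 0.278 on the pair values and 0.144 with the block. No member had one sign on all 6 arrays, whereas 8.03% of rows did. In the plot of single arrays those of pair 1 lie mostly left of those of pairs 2 and 3.

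**Figure D1:**
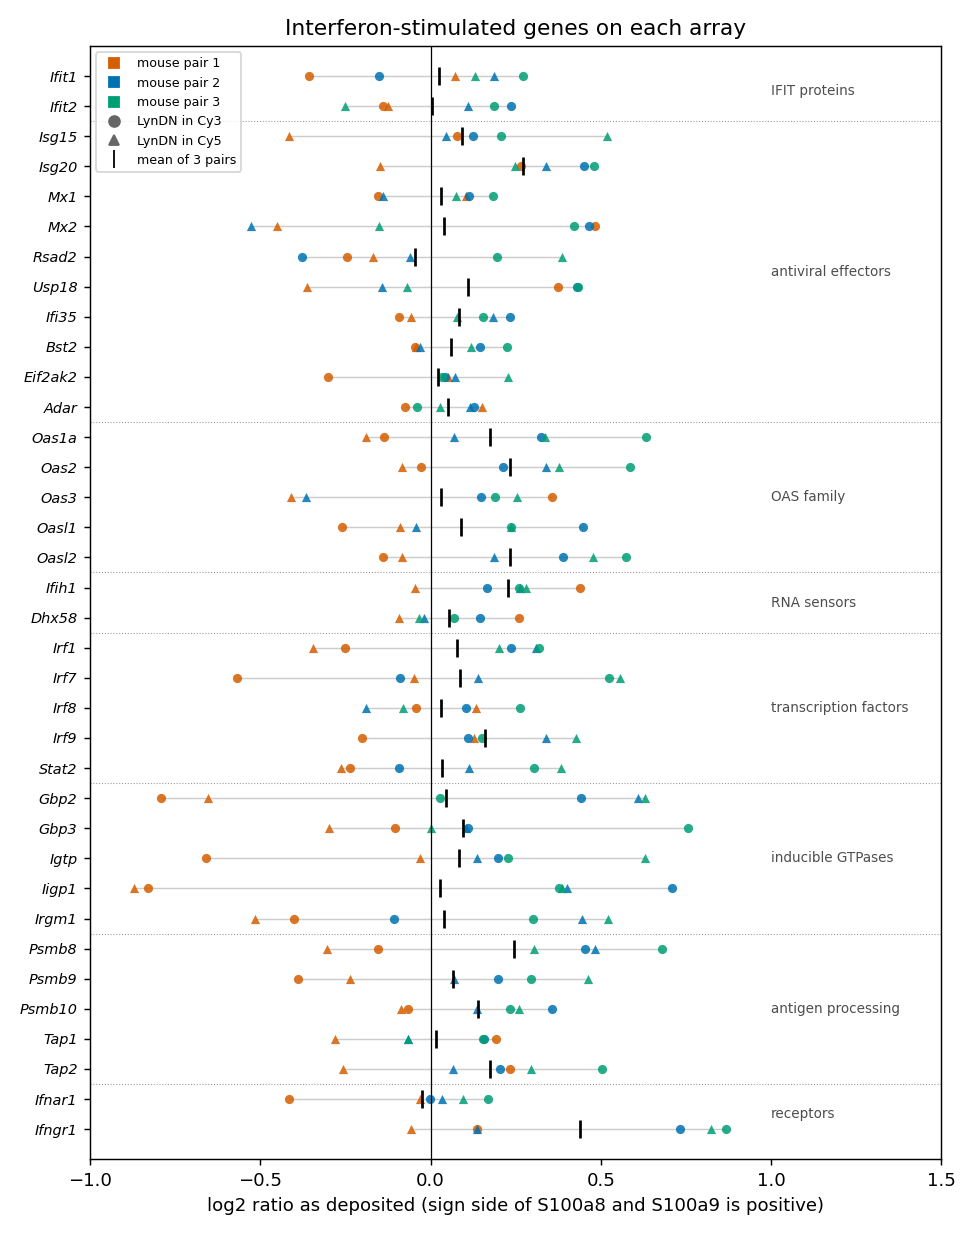
Log2 ratio of each of 36 interferon-stimulated genes on 6 arrays (x axis), by role (y axis, dotted lines between roles). Colours are mouse pairs, circles and triangles are the dye orientations, grey lines span the arrays and black ticks are means of 3 pairs. For Gbp2 and Iigp1 both arrays of pair 1 lie near -0.65 or lower, while the other 4 arrays are above 0.

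The pairs differed in the sign of these genes. The member median was -0.12 in pair 1, 0.14 in pair 2 and 0.28 in pair 3, while the medians over all rows were -0.0017, -0.020 and -0.011. For 24 of 36 members the ratio was negative in pair 1 and positive in both other pairs, a pattern found in 12.1% of all rows. Pair 1 gave the lowest of the 3 pair values for 30 members, pair 2 for 4 and pair 3 for 2, against 33.8%, 34.9% and 31.2% of all rows. Positive values in all 3 pairs were found for 5 members, Isg20, Usp18, Ifih1, Dhx58 and Ifngr1, against 15.5% of rows.

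Single arrays showed the same order. Both arrays of pair 1 lay below the other 4 for 17 of 36 members, against 8.34% of rows, and above the other 4 for 0 members, against 8.59% of rows. For pair 2 the arrays stood below the others for 0 members (5.75% of rows) and above them for 2 (5.02% of rows). For pair 3 they stood below for 0 (4.46% of rows) and above for 12 (4.58% of rows). Among the 3 arrays with LynDN in Cy3, pair 1 was lowest for 29 members (33.5% of rows), and among the 3 with LynDN in Cy5 for 31 (34.4% of rows). Genes of one pathway are not independent of each other, and each pair is 1 comparison of 2 mice, so pair 1 was not tested against the others. These counts by pair were chosen after the values were seen. A ratio does not show whether the LynDN or the WT mouse of a pair departs from the rest.

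**Figure D2:**
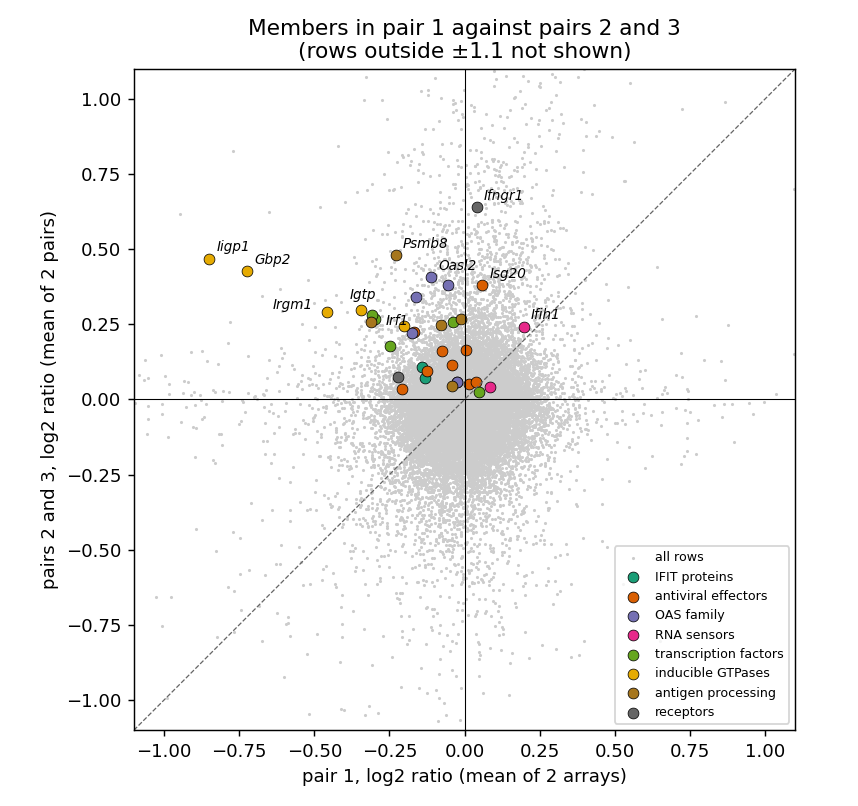
Pair 1 (x axis) against the mean of pairs 2 and 3 (y axis), log2 ratios, for the 36 members by role and for all rows in grey; the dashed line marks equal values. Most members lie in the upper left, with Iigp1 (-0.85 in pair 1) and Gbp2 (-0.72) farthest left and Ifngr1 highest.

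Other measures set pair 1 apart too. Among Y-linked genes, ratios of Eif2s3y and Kdm5d were 3.50 and 1.24 in pair 1 and between -0.047 and 0.13 in pairs 2 and 3. Xist, the RNA that silences an X chromosome, stood at -1.06 in pair 1 and at -0.091 and -0.14 in the others, while Y-linked Uty had 0.067, 0.13 and -0.48. Signs of Eif2s3y and Kdm5d opposite to that of Xist are those of a male set against a female in pair 1. If so, sex and genotype cannot be told apart there, and pair 1 enters every mean over 3 pairs. Uty did not show this in pair 1, and the labels give no sex. Of 17 macrophage markers, 12 had both pair 1 arrays below the other 4, against 8.34% of all rows. The median of the 17 was -0.038 in pair 1, 0.48 in pair 2 and 0.74 in pair 3. The arrays of a dye swap correlated across probes with r = 0.0040 in pair 1, 0.442 in pair 2 and 0.435 in pair 3, where probes are not independent replicates. The part of these measures in the member values was not tested. In whole skin, more cells of a type and more RNA per cell cannot be told apart.

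Without pair 1, all 36 members had a positive mean, against 43.7% of rows, and 3 passed, all positive, where 3.22% of rows passed on the positive side. They were the immunoproteasome subunit Psmb8 with 0.48 (adjusted p = 0.0229), the immunity-related GTPase Iigp1 with 0.47 (adjusted p = 0.0374) and the exonuclease Isg20 with 0.38 (adjusted p = 0.0411), by limma on 2 pairs. These calls rest on 2 LynDN and 2 WT mice. Pair 1 gave the lowest pair value for 30 of 36 members, so higher means without it follow from those same values. The adjusted p values do not allow for attention to pair 1 after the values were seen. The member median was 0.23 without pair 1 and 0.0014 without pair 3. Without pair 3, 19 of 36 members had a positive mean, against 44.9% of rows, and 0 passed, where 0.0175% of rows did. Without pair 2 the count was 30, against 46.6% of rows, and 0 passed, where 0.00874% of rows did. So few rows passed in these 2 settings that the 0 says little about the members.

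Promoter sequence is shown for some of the members with a wide difference between pairs that hold either response element. Gbp3 also holds one and is not shown. Isg15 is shown as a member whose pair 1 arrays did not stand apart. RefSeq promoter entries (GRCm38.p6) matched 29 of 36 members by symbol; Mx1, Mx2, Usp18, Oas2, Dhx58, Iigp1 and Tap2 had none. The 250 bases before each start site were searched on both strands for an ISRE-type motif, GAAANNGAAA, and a GAS-type motif, TTCNNNGAA. The ISRE-type motif was found in 11 of 38 promoters of members and in 2.98% of all 32851 promoters. The GAS-type motif was found in 9 of 38 promoters of members and in 7.02% of all promoters. Bst2, Igtp and Oas1a held both, and 12 members held neither. Of the 15 matched members with both pair 1 arrays lowest, 7 held the ISRE-type motif, and of the 14 others 4 did. The last 130 bases before the start site are given 5′ to 3′ on the gene's strand, with matches in capitals, and overlapping matches merge into 1 run.
Gbp2, chr3:142620533-142620662 (+ strand): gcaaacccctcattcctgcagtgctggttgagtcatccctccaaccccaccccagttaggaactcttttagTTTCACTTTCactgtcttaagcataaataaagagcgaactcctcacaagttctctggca
Irgm1, chr11:48871421-48871550 (- strand): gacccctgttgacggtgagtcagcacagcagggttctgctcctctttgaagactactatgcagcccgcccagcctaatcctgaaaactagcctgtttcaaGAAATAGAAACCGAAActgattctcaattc
Igtp, chr11:58199426-58199555 (+ strand): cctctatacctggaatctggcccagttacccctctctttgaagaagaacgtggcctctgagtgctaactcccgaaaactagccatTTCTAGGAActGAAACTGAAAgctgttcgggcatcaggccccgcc
Irf1, chr11:53769884-53770013 (+ strand): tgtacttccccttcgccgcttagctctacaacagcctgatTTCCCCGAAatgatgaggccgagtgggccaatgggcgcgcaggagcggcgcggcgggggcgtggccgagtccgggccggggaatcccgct
Psmb8, chr17:34198065-34198194 (+ strand): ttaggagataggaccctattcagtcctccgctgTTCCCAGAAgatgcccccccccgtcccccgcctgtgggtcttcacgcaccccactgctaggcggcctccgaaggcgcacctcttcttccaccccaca
Oas1a, chr5:120907526-120907655 (- strand): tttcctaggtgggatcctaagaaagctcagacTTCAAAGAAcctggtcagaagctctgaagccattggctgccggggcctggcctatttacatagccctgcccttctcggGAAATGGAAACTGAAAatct
Isg15, chr4:156200819-156200948 (- strand): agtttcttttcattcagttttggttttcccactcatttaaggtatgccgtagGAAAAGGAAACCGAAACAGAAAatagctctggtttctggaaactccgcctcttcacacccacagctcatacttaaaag
Gbp2 held its ISRE-type match 59 bases before the start, on the reverse strand, and Irgm1 held a pair of overlapping matches from 30 bases before it. In Igtp the GAS-type match began 45 and the ISRE-type match 34 bases before the start. Oas1a held a pair of overlapping ISRE-type matches from 20 bases before the start and the GAS-type motif at 98, and Isg15 a run of 3 ISRE-type matches from 78. Irf1 and Psmb8 held only the GAS-type motif in the window, 90 and 97 bases before the start. A match describes letters and not binding.

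The interferon-inducible GTPases differed most between pairs. Gbp2 and Gbp3 are guanylate-binding proteins, and Igtp, Iigp1 and Irgm1 are immunity-related GTPases of pathogen vacuoles. For all 5 both arrays of pair 1 lay below the other 4, against 8.34% of all rows. The group median was -0.46 in pair 1, 0.17 in pair 2 and 0.38 in pair 3, and its median mean ratio was 0.044. Iigp1 gave -0.83 and -0.87 on the arrays of pair 1 (LynDN in Cy3 first, here and below), 0.71 and 0.40 in pair 2, while pair 3 gave 0.38 and 0.39. The mean was 0.029 ± 0.77 (SD, n = 3; limma adjusted p = 0.976), a mean over opposite signs. Gbp2 gave -0.79 and -0.65, then 0.44 and 0.61, then 0.029 and 0.63, with a mean of 0.044 ± 0.67 (SD, n = 3; limma adjusted p = 0.957, with a 95% interval from -0.60 to 0.69). The 2 arrays of pair 3 thus disagreed for Gbp2, while those of pair 1 did not overlap any other. Irgm1 had -0.40 and -0.51 in pair 1, -0.11 and 0.45 in pair 2, while pair 3 gave 0.30 and 0.52. Igtp had -0.66 and -0.032, then 0.20 and 0.14, then 0.23 and 0.63. Gbp3 had the narrowest difference of the group between pair 1 (-0.20) and pair 3 (0.38), and its pair 3 arrays gave 0.76 and -9.76e-05.

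Among the transcription factors, 4 of 5 were negative in pair 1 and positive in pairs 2 and 3, against 12.1% of all rows, and Irf8 was not. Irf1, which interferon gamma induces strongly, had -0.25 and -0.35 in pair 1, 0.24 and 0.31 in pair 2, while pair 3 gave 0.32 and 0.20. The pair 1 arrays lay apart from the rest, with a mean of 0.078 ± 0.33 (SD, n = 3; limma adjusted p = 0.834). Irf7, the amplifier of type I interferon production, had -0.57 and -0.049, then -0.089 and 0.14, then 0.52 and 0.56, so pair 3 stood above the others. Stat2 had pair values of -0.25, 0.010 and 0.34. Irf9, its DNA-binding partner, had -0.037, 0.22 and 0.29. Irf8, a factor of the myeloid lineage, had 0.046, -0.043 and 0.092. The group median was -0.25, 0.025 and 0.29 in pairs 1, 2 and 3.

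Antigen-processing genes had a positive median in pairs 2 and 3 and a negative one in pair 1. The group holds the inducible proteasome subunits Psmb8, Psmb9 and Psmb10 and the peptide transporter subunits Tap1 and Tap2. Psmb9, Tap1, Psmb8 and Tap2 follow each other on the chromosome in the RefSeq gene table. The median was -0.077, 0.14 and 0.38 by pair. Psmb8 had -0.15 and -0.30 in pair 1, 0.45 and 0.48 in pair 2, while pair 3 gave 0.68 and 0.30, with a mean of 0.24 ± 0.41 (SD, n = 3; limma adjusted p = 0.579). Psmb9 had pair values of -0.31, 0.13 and 0.38, and Psmb10 had -0.077, 0.25 and 0.25. All 3 inducible subunits had both pair 1 arrays below the other 4, against 8.34% of all rows. Tap1 pair values ran only from -0.043 to 0.045 (mean 0.015, 95% interval -0.12 to 0.15), while its neighbour Psmb8 spanned 0.72, from -0.23 to 0.49. Each of these Tap1 values averages arrays of opposite sign. With LynDN in Cy3 the Tap1 ratios were 0.19, 0.16 and 0.15 by pair. With LynDN in Cy5 they were -0.28, -0.067 and -0.067. The Tap1 interval leaves out this difference between dye orientations. Tap2 had -0.012, 0.14 and 0.40.

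The constitutive catalytic subunits that the inducible ones replace differed among themselves. Psmb5 had -0.090, 0.10 and 0.029 by pair, the same signs as the inducible subunits at a smaller size, and Psmb7 had 0.080, -0.087 and -0.043. Each of these Psmb5 and Psmb7 values averages arrays of opposite sign, positive with LynDN in Cy3 and negative with LynDN in Cy5. For Psmb5 the arrays gave 0.36 and -0.54, then 0.37 and -0.16, then 0.25 and -0.19. The signs of such small pair values thus rest on cancelling dyes. Psmb5, Psmb6 and Psmb7 had a median of -0.025 in pair 1, -0.087 in pair 2 and -0.043 in pair 3. Both pair 1 arrays were lowest for 0 of 3, against 8.34% of all rows. At that share a 0 among 3 genes says little about them. Taken as a difference of log2 ratios within each pair, Psmb8 minus Psmb5 was -0.14, 0.36 and 0.46, Psmb9 minus Psmb6 was -0.29, 0.67 and 0.68, and Psmb10 minus Psmb7 was -0.16, 0.33 and 0.29. Each of the 3 differences was negative in pair 1 and positive in pairs 2 and 3, with SDs between 0.27 and 0.56 over the pairs. These SDs leave out the difference between dye orientations in Psmb5 and Psmb7. Part of the second difference came from Psmb6 itself, with -0.025, -0.54 and -0.30.

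The OAS family, enzymes that make the messenger activating RNase L and their relatives, had a median of -0.11, 0.20 and 0.48 by pair. For 4 of its 5 members the pair 1 arrays lay below the others, against 8.34% of all rows. Oasl2 had -0.14 and -0.083, then 0.39 and 0.19, then 0.57 and 0.48, and its mean was 0.23 ± 0.32 (SD, n = 3; limma adjusted p = 0.522). Oas2 had -0.027 and -0.085, then 0.21 and 0.34, then 0.59 and 0.38. Oas1a had pair values of -0.16, 0.20 and 0.49. In these 3 genes all arrays were negative in pair 1, positive in pair 2 and above both in pair 3. Oasl1, whose gene adjoins Oasl2, had -0.17, 0.20 and 0.24. Oas3, which adjoins Oas2, differed: its arrays gave 0.36 and -0.41 in pair 1, 0.15 and -0.36 in pair 2, while pair 3 gave 0.19 and 0.26. Single probes can cross-hybridise between these related genes, and each member rests on 1.

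Antiviral effectors and IFIT proteins moved less. Over 10 effectors the median was -0.034, 0.071 and 0.15 by pair. Both pair 1 arrays were lowest for 2 of 10, Ifi35 and Bst2, against 8.34% of all rows. Isg20, an exonuclease that degrades RNA, had 0.27 and -0.15 in pair 1, 0.45 and 0.34 in pair 2, while pair 3 gave 0.48 and 0.25. The mean was 0.27 ± 0.19 (SD, n = 3; limma adjusted p = 0.339), and 5 of 6 arrays were positive. Isg15, a ubiquitin-like modifier, had 0.077 and -0.42, then 0.13 and 0.044, then 0.21 and 0.52, with a mean of 0.092 ± 0.27 (adjusted p = 0.762). Rsad2 (viperin) had -0.21, -0.22 and 0.29, and so shared its sign between pairs 1 and 2. The kinase Eif2ak2 had -0.13, 0.058 and 0.13, and Adar, an RNA-editing enzyme, had 0.038, 0.12 and -0.0053. Mx1, a dynamin-like GTPase against influenza virus, had -0.025, -0.013 and 0.13. The tetratricopeptide proteins Ifit1 and Ifit2 had -0.14, 0.017 and 0.20, and -0.13, 0.17 and -0.033. The 95% interval of Ifit1 ran from -0.18 to 0.23, and that of Ifit2 from -0.19 to 0.20.

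The RNA sensors, only 2 genes, were the role group with the least spread between pairs, with medians of 0.14 in each of the 3 pairs. From pair 1 to pair 3 Ifih1 went up and Dhx58 down, which offset each other. On the arrays of pair 1 the group median was 0.35 with LynDN in Cy3 and -0.069 with LynDN in Cy5. Ifih1 (MDA5), a sensor of long double-stranded RNA, had 0.44 and -0.046 in pair 1, 0.17 and 0.26 in pair 2, while pair 3 gave 0.26 and 0.28. The mean was 0.23 ± 0.039 (SD, n = 3; limma adjusted p = 0.278), the smallest p among members. The SD leaves out the difference between the 2 arrays of pair 1, which had opposite signs. Dhx58, a helicase that modulates sensing, had pair values of 0.085, 0.063 and 0.017. Its arrays were all positive with LynDN in Cy3 and all negative with LynDN in Cy5.

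Of the receptor subunits, Ifngr1 had the largest mean of all members and Ifnar1 one of the 2 negative means. Ifngr1 had 0.14 and -0.057 in pair 1, 0.73 and 0.14 in pair 2, while pair 3 gave 0.87 and 0.82, with a mean of 0.44 ± 0.40 (SD, n = 3; limma adjusted p = 0.379). Both arrays of pair 3 lay above the other 4, and 1 array of pair 2 was as low as pair 1. Ifnar1 had -0.42 and -0.030, then -0.0026 and 0.033, then 0.17 and 0.096. The partner subunits Ifngr2 and Ifnar2 had means of 0.16 and 0.091.

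Genes upstream of the members were read from lists of the pathway. Of 14 interferon ligand genes 0 passed, against 0.0175% of all rows, and the median was 0.036, -0.040 and -0.014 by pair. So few rows passed that a 0 says little about this list or those below. Ifna9 was the exception in size, with 0.22, 1.24 and 1.02 (mean 0.82 ± 0.54, limma adjusted p = 0.290), whereas Ifna4 had 0.17 ± 0.077 and Ifna2 -0.15 ± 0.031. The SD of Ifna2 leaves out the difference between its dye orientations. Its arrays gave 0.20 and -0.43, then 0.060 and -0.35, then -0.13 and -0.22. Alpha interferon genes are close paralogs, and 1 probe cannot separate them with certainty. Ifnb1 and Ifng had means of -0.021 and -0.017. Of 14 receptor and JAK-STAT genes 0 passed on the pair values and 1 with the block, positive, where 1.06% of all rows passed in either direction. The median by pair was 0.016, 0.16 and 0.20. The kinase Jak2 had 0.35 ± 0.13, the feedback inhibitor Socs3 0.83 ± 0.49 and Stat3 0.67 ± 0.46 (SD, n = 3; limma adjusted p = 0.273, 0.279 and 0.303), and these also serve interleukin receptors. Of 15 nucleic acid sensing genes 0 passed, with a median of -0.028, 0.12 and 0.067, and Aim2, Myd88 and Tlr7 had 0.25 ± 0.098, 0.48 ± 0.38 and 0.26 ± 0.19.

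Other interferon-inducible genes had the same order of pairs as the members. They are targets of the same pathway on the same arrays, so this is not an independent repeat. Of 39 such genes 0 passed on the pair values, against 0.0175% of all rows, and 1 with the block, positive, against 1.06% in either direction. Both pair 1 arrays lay below the other 4 for 21 of them, against 8.34% of rows. The median was -0.10 in pair 1, 0.16 in pair 2 and 0.20 in pair 3. The membrane proteins Ifitm3 and Ifitm2, which restrict viral entry, had 0.74 ± 0.37 and 0.29 ± 0.13 (SD, n = 3; limma adjusted p = 0.273 and 0.282), positive in each pair. Ifitm1, of the same family, had the largest mean of the list but was negative in pair 1, with -0.14, 2.08 and 1.45 (mean 1.13 ± 1.15, adjusted p = 0.393). Ifi27 had -0.20 ± 0.062. Of 13 genes of MHC class I presentation 0 passed, against 0.0175% of all rows, and the median was 0.031, 0.17 and 0.22. H2-K1 had 0.053, 0.49 and 0.50, H2-D1 had 0.021, 0.50 and 0.61, and B2m, which joins every class I heavy chain, had -0.12, -0.11 and 0.29. On single arrays H2-K1 was higher with LynDN in Cy3 in each pair: 0.39 and -0.29, then 0.75 and 0.23, then 0.91 and 0.10. The pair 1 arrays of H2-D1 also had opposite signs, 0.20 and -0.16. Tapbpl had 0.77, 0.33 and 0.22, where its 2 arrays of pair 1 gave 0.025 and 1.52.

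**Figure D3:**
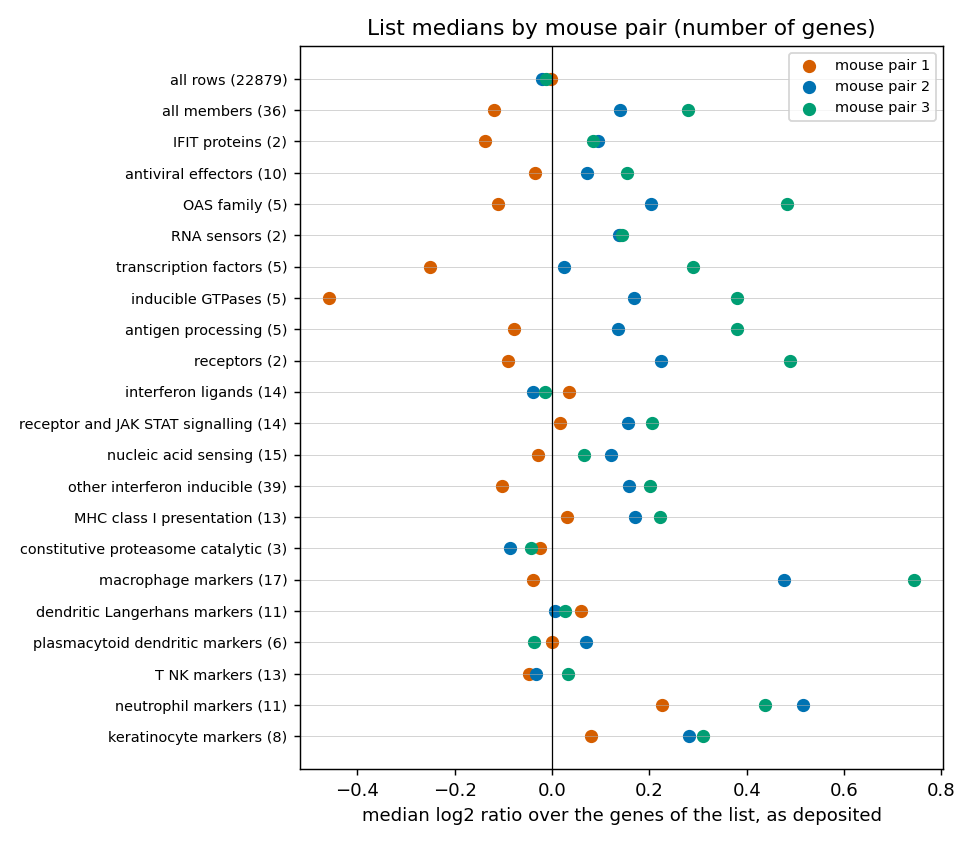
Median log2 ratio (x axis) of each list (y axis, number of genes in brackets) in the 3 mouse pairs. Inducible GTPases are at -0.46 in pair 1, interferon ligands stay near 0 in all pairs, and macrophage markers are at -0.038, 0.48 and 0.74.

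Cell type markers beside these values differed by lineage. The macrophage list was led by Ms4a7 with -0.11, 0.97 and 1.43 and Fcgr3 with -0.038, 0.85 and 1.15. Of its 17 means 15 were positive, against 43.9% of all rows. Itgam ran the other way with 0.29, 0.12 and -1.08, where its arrays of pair 3 gave 0.10 and -2.26. Ccr2 also had a negative mean, -0.025. The neutrophil list of 11 genes had medians of 0.23, 0.52 and 0.44. Its alarmins S100a8 and S100a9 passed on the pair values, and 3 of its genes passed with the block, Csf3r (0.38 ± 0.12, SD, n = 3; block adjusted p = 0.0486) being the other. The same alarmins define the positive side here, and no other gene of the list passed on the pair values. In whole skin a ratio does not show which cells held their RNA. Plasmacytoid dendritic cells are known for type I interferon output, and their 6 markers had medians of 0.00075, 0.069 and -0.037. Tcf4 had the largest absolute mean of the 6 and was negative in each pair, with -0.24, -0.059 and -0.29. Siglech had 0.11, 0.13 and -0.045. Dendritic and Langerhans cell markers (11 genes) had 0.059, 0.0060 and 0.026, although the MHC class II genes Cd74 and H2-Ab1 had means of 0.49 and 0.45. T and NK cell markers (13 genes), sources of interferon gamma, had -0.047, -0.032 and 0.033, with Cd3g at -0.32 ± 0.12 and the cytotoxic gene Prf1 at 0.48 ± 0.19. The lists for B cells (5 genes), endothelium (7), fibroblasts (6) and keratinocytes (8) had median mean ratios of -0.022, 0.0073, -0.11 and 0.21. Among keratinocyte genes the basal keratin Krt14 had 1.34 ± 0.54 and the differentiation keratin Krt10 -1.77 ± 1.24 (SD, n = 3). On the pair values no gene of these lists other than the neutrophil markers passed, and with the block Krt14 did (limma adjusted p = 0.0295). Of all rows 0.0175% passed on the pair values and 1.06% with the block. Only ratios are given, so no marker can be said to be absent.

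Signs on single arrays were also compared between dye orientations. In 4 of 36 members, Mx2, Usp18, Dhx58 and Tap1, all 3 arrays with LynDN in Cy3 were positive and all 3 with LynDN in Cy5 negative, against 5.99% of rows. Mx2 gave 0.48, 0.47 and 0.42 in the first orientation and -0.45, -0.53 and -0.15 in the second. Averaging within pairs left means of 0.040 for Mx2 and 0.11 for Usp18, the protease that removes Isg15, which rest on cancelling dyes. In limma on the within-pair differences 0 of 36 members passed, against 0.573% of rows, with the smallest adjusted p for Mx2 at 0.0525. At an unadjusted p under 0.05 there were 5, Mx2, Usp18, Irf9, Tap1 and Tap2, against 21.4% of rows. GTPases of pair 1 did not show this pattern: Gbp2, Iigp1 and Irgm1 were negative in both orientations there.

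**Figure D4:**
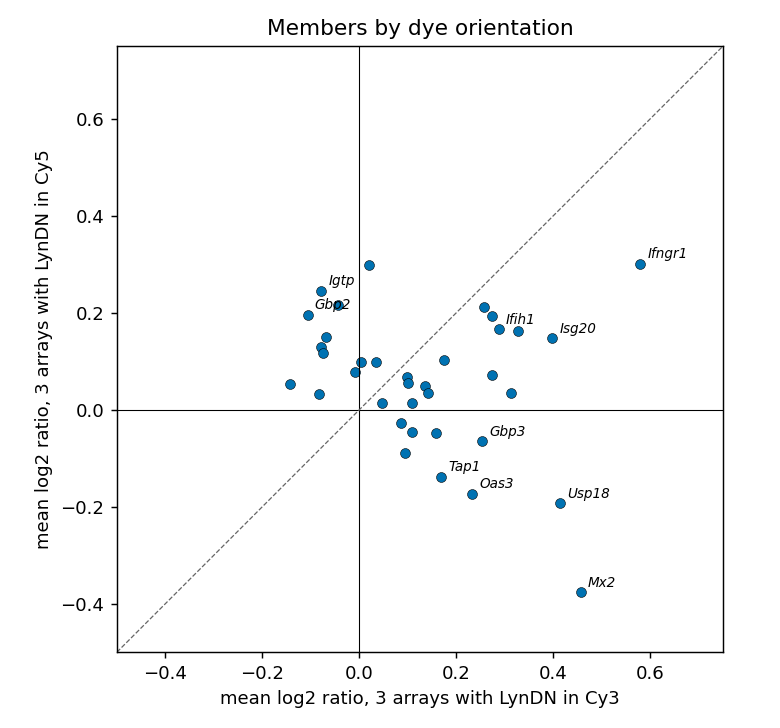
Mean log2 ratio of each member on the 3 arrays with LynDN in Cy3 (x axis) against the 3 with LynDN in Cy5 (y axis); the dashed line marks equal values, and members more than 0.3 from equality are named, with Ifngr1, Ifih1 and Isg20. Mx2 and Usp18 lie farthest below the line.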

How the data were processed

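The deposited table holds 1 log2 ratio per probe and array, but the log base, numerator, background correction and normalization were not given in the sources used here. Per the labels' protocols RNA was extracted with Qiagen and labelled by an Ambion protocol in Cy3 and Cy5. Each column had a mean of 0. No spot intensity was used here, so which probes exceeded background is not known here. GEO's platform annotation gave the gene names: among 25344 probes, 21082 had 1 symbol, 30 several and 4232 none. Probes of a symbol were averaged, the 2 arrays of a dye swap were averaged, and the 3 pair values were set against 0 by limma (version 3.58.1, run in R 4.3.3; lmFit, eBayes; Benjamini-Hochberg over 22879 rows; threshold 0.05; prior of 2.96 degrees of freedom). This test was checked on simulated data. Dye orientation was tested on the 3 within-pair differences in the same way. An alternative fitted all 6 arrays, with dye as a term and pairs as a random block (consensus correlation 0.151). The labels give the pairing, since both arrays of a pair name the same mice. A sign-flip test over 3 pairs cannot give a two-sided exact p below 0.25. Precision is limited by the number of arrays, and SDs are over pair values. Values of 8 members, among them Iigp1, Ifit1 and Oasl2, carry at most 3 significant digits. Promoters were searched with Python 3.11.15, and figures drawn with matplotlib 3.10.9. Other settings tried were median centring, quantile normalization, probes as rows, the median over probes, no variance moderation, named rows only, each pair left out, each dye orientation alone, and leaving out the 1 array with another label date. Members and lists were chosen with earlier results of these data known. Named were all members, the 3 genes of smallest p of each pathway list, up to 2 markers of each lineage with the largest absolute mean, and sex-linked and alarmin genes. Genes outside this rule (Ifnb1, Ifng, Ifngr2, Ifnar2, B2m, Ifitm1, Csf3r, Itgam, Ccr2) were chosen after their values were seen.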

Additional observations from a re-analysis of the deposited data

Results flagged for a closer look

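Between the dye orientations 4 of 36 members had opposite signs, positive on all 3 arrays with LynDN in Cy3 and negative on all 3 with LynDN in Cy5, against 5.99% of all rows. The difference of the mean ratio with LynDN in Cy5 minus that with LynDN in Cy3 was -0.83 for Mx2, -0.61 for Usp18, -0.31 for Tap1 and -0.21 for Dhx58. In limma on the within-pair differences the adjusted p was 0.0525, 0.0632, 0.177 and 0.297, so none passed.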

How the results depend on the processing

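The count of members past the threshold was 0 under every setting tried except without pair 1, where it was 3 (range 0 to 3 over the pairs left out). The count with a positive mean ran from 19 to 36 with 1 pair left out. The RNA sensor median, over 2 genes and with a very small SD between pairs, went from 0.14 to 0.15 with median centring, 0.15 with quantile normalization and 0.15 without the array of another label date, and to 0.22 and 0.059 with only LynDN in Cy3 and only LynDN in Cy5. Signs of small means turned often. With quantile normalization Gbp2, Ifit2 and Iigp1 had -0.025, -0.0016 and -0.032. Without the array of another label date Ifit1, Irgm1 and Stat2 had -0.031, -0.051 and -0.00011. With only LynDN in Cy3, Eif2ak2, Gbp2, Ifit1, Igtp, Irf7, Irgm1 and Stat2 had -0.075, -0.11, -0.079, -0.078, -0.045, -0.069 and -0.0086. With only LynDN in Cy5, Dhx58, Gbp3, Ifit2, Iigp1, Irf8, Mx2, Oas3, Tap1 and Usp18 had -0.049, -0.065, -0.089, -0.028, -0.045, -0.38, -0.17, -0.14 and -0.19, while Ifnar1 and Rsad2 had 0.033 and 0.052. Leaving out each pair in turn gave ranges that cross 0: Eif2ak2 -0.034 to 0.094, Gbp2 -0.20 to 0.43, Gbp3 -0.048 to 0.24, Ifit1 -0.063 to 0.11, Ifit2 -0.083 to 0.071, Ifnar1 -0.10 to 0.074, Igtp -0.089 to 0.30, Iigp1 -0.23 to 0.47, Irf1 -0.019 to 0.27, Irf7 -0.14 to 0.28, Irgm1 -0.14 to 0.29, Isg15 -0.043 to 0.22, Mx1 -0.019 to 0.058, Mx2 -0.0078 to 0.075, Oas3 -0.067 to 0.098, Psmb9 -0.090 to 0.26, Rsad2 -0.21 to 0.041 and Stat2 -0.12 to 0.18. The cause of these changes was not tested. The mouse pair as a replicate block gave 0 members past the threshold and the same member median, 0.072.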
